A study of Mus musculus with 4 samples.

Results

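The genes described here encode subunits of the receptors for glutamate, GABA and glycine. They were taken as a list of 39 gene symbols, all of which matched protein-coding genes of the RefSeq annotation of GRCm38.p6, out of 21887 such genes on chromosomes 1 to 19, X and Y. The study mapped STAT3 on chromatin by ChIP-seq, with a rabbit antibody to STAT3, in spinal cord tissue of C57BL/6 mice that had been digested to single cells. Sham mice had a laminectomy at thoracic level 9, and SCI (spinal cord injury) mice had a moderate contusion of 60 kdyn at the same exposed level. In both groups the tissue around that level (the epicentre) was collected 7 days later. Sham and SCI are each represented by 1 STAT3 library and 1 input library, made from a pool of 3 mice, so no value below has a replicate check and no test between sham and SCI was possible. The labels describe no sort for a cell type, and the peak lists hold no expression values, so the cell makeup of the pools was not checked.

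Glutamate opens the AMPA, kainate and NMDA channels, which carry fast excitation, and acts more slowly through metabotropic receptors coupled to G proteins. GABA and glycine open chloride channels, the GABA-A and glycine receptors, which carry fast inhibition in the spinal cord, and GABA also acts through the G protein-coupled GABA-B receptor. Each of the channels is assembled from several subunits, and many of the receptor genes have very long introns. STAT3, a transcription factor, is switched on by cytokines such as interleukin-6 and takes part in the reaction of astrocytes to injury.

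Length has to be read first. The receptor genes ran from 6.79 kb (Grin3b) to 922 kb (Grm7), with a median of 190 kb against 17.2 kb for all protein-coding genes, and 24 of the 39 lay in the longest 10% of genes (109 kb or more). Peaks were assigned to a gene by their centre, which had to fall in the gene or at most 5 kb from either end. The number of peaks went with length across the 39 genes (Spearman rho 0.92 in sham and 0.83 in SCI), which share the same library and are not replicates. Each gene was therefore set beside the 200 protein-coding genes nearest to it in length, with the receptor genes themselves left out, and these are called genes of like length.

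**Figure D1:**
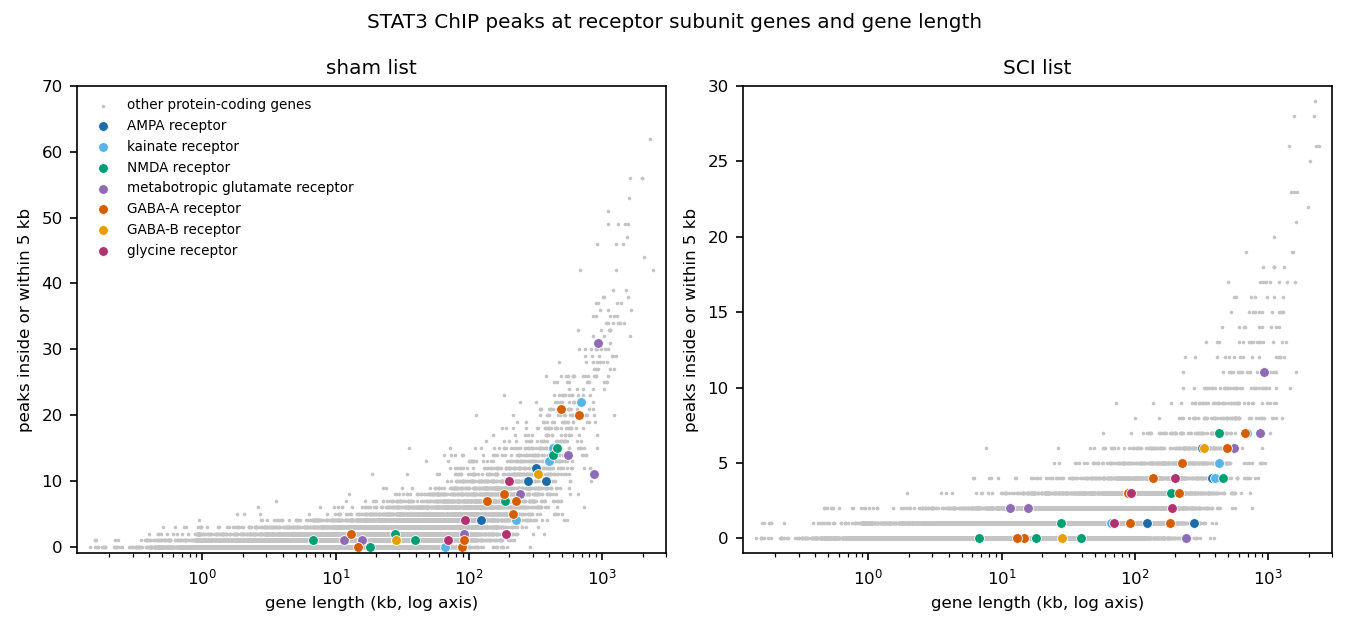
Number of peaks inside or within 5 kb of each protein-coding gene (vertical axis) against gene length in kb (horizontal log axis), in the sham list (left) and the SCI list (right). Grey points are other genes and coloured points are the 39 receptor genes. These lie within the grey cloud from 6.79 kb (Grin3b) to 922 kb (Grm7, with 31 sham and 11 SCI peaks).

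A sham peak was present at 35 of the 39 receptor genes, 89.7%, where 66.7% of all protein-coding genes and 92.2% of genes of like length had one. An SCI peak was present at 32 genes, 82.1%, against 43.9% of all genes and 80.8% of genes of like length. Both shares lay well above those of all genes and close to those of genes of like length. Both lists had a peak at 30 receptor genes (76.9%), compared with 37.3% of all genes and 78.2% at like length. Only sham peaks were seen at 5 genes (Grin2d, Grin3b, Grm3, Gabrd and Gabbr1), 12.8% against 29.3% of all and 14.0% at like length, and only SCI peaks at 2 genes (Grik5 and Gabra4), 5.13% against 6.51% and 2.58%. The remaining 2 genes, Grin2c and Gabra6, had none in either list, 5.13% against 5.23% at like length.

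The receptor genes together held 298 sham and 126 SCI peaks, none of them counted at more than 1 of these genes. Genes of like length would have held 327 and 137 by their mean numbers. The ratio of found to expected peaks was 0.91 in sham (95% exact Poisson interval 0.81 to 1.02) and 0.92 in SCI (0.77 to 1.10), with intervals that cover counting error only. The number in sham was 2.37 times that in SCI, compared with 2.38 at genes of like length and 2.45 over the complete lists. SCI peaks made up 29.7% of the peaks at receptor genes (95% exact binomial interval 25.4 to 34.3%) and 29.0% of all peaks. The SCI list is the shorter one (36249 peaks, sham 88765) and the depth of both is unknown, so a peak missing from a list may be a site that was not detectable. Nearly all peaks lay inside the genes, 292 in sham and 119 in SCI. The genes have a summed length of 9801.5 kb and the window adds 5 kb at each end, so most of the counted sequence is inside them.

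**Figure D2:**
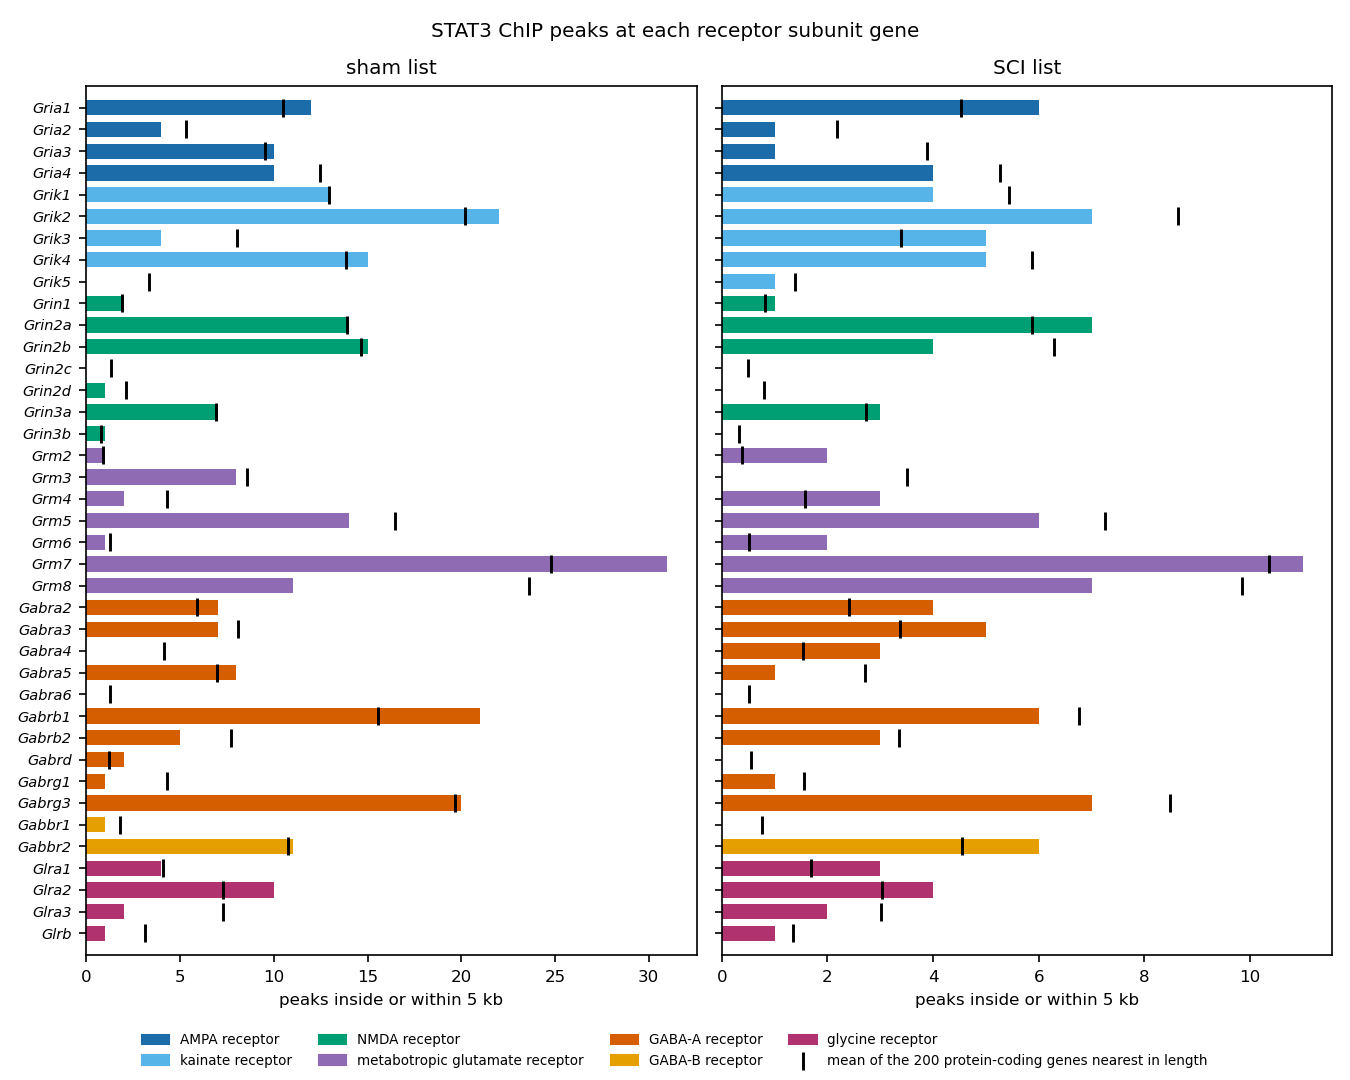
Bars give the number of peaks inside or within 5 kb of each receptor gene in the sham list (left) and the SCI list (right), coloured by receptor class, and black ticks give the mean of the 200 protein-coding genes nearest in length. Bars and ticks rise and fall together, with Grm8 in sham (11 peaks against 23.6) and Grm3 in SCI (none against 3.51) among the widest gaps.

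Among the AMPA receptor genes, which encode the channels of fast excitation, all 4 had peaks in both lists. Gria1 (chr11:57011571-57330244) held 12 sham and 6 SCI peaks, the most of the class in each list, where genes of like length averaged 10.5 and 4.54. Gria4 held 10 sham and 4 SCI peaks. Gria2, the subunit that limits calcium entry, had 4 sham peaks inside the gene and a single SCI peak 3986 bp outside it. Gria3 (chrX:41400819-41678601) had 10 sham peaks and a single SCI peak, which scored 13.8 and lay in the top 11.3% of the SCI list. This SCI peak had the square-root form of score described with the shared positions, and without that form Gria3 had sham peaks alone. The 10 sham peaks were close to the 9.53 expected, and the SCI number stood at percentile 9.5 of genes of like length. The density of the 500 kb on each side of Gria3 would have given 14.4 sham and 4.89 SCI peaks. A percentile counts the genes of like length with fewer peaks, and those with an equal number at a weight of 0.5. Over the class, 36 sham and 12 SCI peaks compared with 37.7 and 15.9 expected.

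Kainate receptor genes held 54 sham peaks, against 58.4 expected, and 22 SCI peaks, against 24.7. Grik2, a main channel-forming subunit, had the most in both lists, 22 in sham and 7 in SCI. Grik4, a partner subunit, had 15 sham and 5 SCI peaks, and Grik1 had 13 and 4. Grik3 was among the 6 receptor genes with more SCI than sham peaks, with 4 in sham against 8.04 expected and 5 in SCI against 3.395. The others were Grik5, Gabra4, Grm2, Grm4 and Grm6. The 6 made up 15.4% of the receptor genes, compared with 7.05% of genes of like length and 9.76% of all protein-coding genes. Many of their SCI peaks had the square-root form of score described with the shared positions. With peaks of that form left out of both lists, only Grik3 and Grm2 of the 6 kept more SCI than sham peaks. Grik5 and Gabra4 then had no peak, Grm4 had a sham peak alone, and Grm6 had equal numbers. At Grik5, another partner subunit (chr7:25009849-25075694), the nearest sham peak lay 17.7 kb outside the gene, where 92% of genes of like length had a sham peak. Its only SCI peak scored 5, the lowest score in the list.

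NMDA receptors need Grin1 in every channel, together with a glutamate-binding Grin2 or a glycine-binding Grin3 subunit. Grin2b (chr6:135713221-136173615) held 15 sham peaks against 14.6 and 4 SCI peaks against 6.29, at percentile 20.8. Grin2a held 14 sham and 7 SCI peaks, the most of the class in SCI, and Grin3a held 7 and 3. Grin1, a gene of 28.0 kb, had 2 sham peaks and 1 SCI peak, against 1.88 and 0.815 expected. The higher sham peak, with a score of 10.28, lay 1199.5 bp outside the gene. Grin2d and Grin3b had 1 sham peak each and no SCI peak, and 46.5% and 72.5% of the genes of their lengths also lacked an SCI peak. The sham peak at Grin3b lay 4841 bp outside it and inside the neighbouring gene Tmem259. Grin2c had no peak, with the nearest sham peak 22.4 kb away and the nearest SCI peak 113 kb away, and 31.0% of genes of like length had no sham peak and 61.5% no SCI peak. The class had 40 sham peaks against 41.6 expected and 15 SCI peaks against 17.3.

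Metabotropic glutamate receptor genes held 68 sham peaks, against 79.8 expected, and 31 SCI peaks, against 33.4. Grm7 (chr6:110645349-111567230), a presynaptic receptor and the longest gene of the list, had 31 sham and 11 SCI peaks, the most of all receptor genes in each list. Genes of like length averaged 24.8 and 10.4, but they were shorter on average (826 kb), and by peaks per kb Grm7 stood at percentile 71.5 in sham and 44.5 in SCI. Grm8 on the same chromosome (27275121 to 28135146) is nearly as long and had 11 sham peaks against 23.6, at percentile 5.25, and 7 SCI peaks against 9.85. The density of the 500 kb on each side of Grm8 would have given 9.57 sham and 9.57 SCI peaks. The sham number was thus low beside other genes of that length and not beside its own neighbourhood. For Grm7 the same density would have given 27.0 sham and 16.8 SCI peaks. Grm5, which couples to calcium release, held 14 sham and 6 SCI peaks.

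Grm3 (chr5:9485236-9725352), a receptor of neurons and astrocytes, had 8 sham peaks and no SCI peak. The sham number was near the 8.56 expected, while only 6.0% of the 200 genes of like length had no SCI peak. Of the 200, 2 had at least 8 sham peaks and no SCI peak. This was the lowest share of its kind among the 39 receptor genes, an extreme picked from many. The 8 sham peaks scored 5.68, 21.96, 11.1, 6.48, 20.55, 5, 6.86 and 5.68 along the chromosome. The 2 highest, at chr5:9492741-9492930 and chr5:9532771-9532960, lay in the top 7.0% and 8.27% of the sham list. Its nearest SCI peak lay 12.3 kb outside the gene. The 3 genes of the class with more SCI than sham peaks were shorter. Grm2 (11.6 kb) and Grm6 (15.8 kb) each had 1 sham and 2 SCI peaks, where genes of like length averaged 0.38 and 0.505 SCI peaks (percentiles 97.0 and 94.3). Of the 2 SCI peaks at Grm2, 1 lay 1332.5 bp outside the gene. Grm4, like Grm2 a receptor of nerve terminals, had 2 sham and 3 SCI peaks (percentile 85.3 in SCI), and 2 of these 3 lay outside the gene. One SCI peak at Grm6, the receptor of retinal ON bipolar cells, at chr11:50860313-50860476, scored 18.3 and lay in the top 4.89% of the SCI list, and the SCI peaks at Grm2 and Grm4 scored 5 to 7.34.

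GABA-A receptor genes held 71 sham peaks against 74.8 expected and 30 SCI peaks against 31.3. Gabrb1 (chr5:71657921-72149572) held 21 sham peaks against 15.6, the highest sham percentile of all receptor genes (83.0), and 6 SCI peaks against 6.77. Gabrg3 held 20 sham peaks and, with 7, the most SCI peaks of the class. The alpha subunits help to set the response to benzodiazepines. Of their genes, Gabra2 had 7 sham and 4 SCI peaks and Gabra3 had 7 and 5. Gabrb2, a beta subunit needed to form the GABA site, had 5 and 3, and Gabrg1, a gamma subunit, had 1 of each against 4.28 and 1.56 expected. Gabra5 (chr7:57407669-57591016), an alpha subunit found largely outside synapses, had 8 sham peaks, of which 3 scored 24.7 to 34.7 in the top 5.06% of the list or higher, and a single SCI peak against 2.71 expected. Gabrd, an extrasynaptic subunit, had 2 sham peaks and no SCI peak, and 56% of genes of its length also lacked an SCI peak. Of its 2 sham peaks, 1 lay 4991.5 bp outside the gene.

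Gabra4 and Gabrb1 overlap at their starts on chromosome 5 and are read in opposite directions, and they differed in the lists. Gabra4 (71569734 to 71658308) had no sham peak, where 95.5% of genes of like length had one, and 3 SCI peaks against 1.55 expected, at percentiles 2.25 and 84.8. Of its 200 genes of like length, 1 combined no sham peak with 3 or more SCI peaks. Shares of this kind were computed in both directions for all 39 genes. Those of Gabra4 and Grm3 were the lowest, so they are extremes picked from many. The SCI peaks at Gabra4 scored 5, 9 and 5.93, of which the highest lay in the top 32.1% of the list. All 3 had the square-root form of score described with the shared positions. A sham peak with a score of 12.2 lay 6.26 kb outside Gabra4, so with a window of 10 kb the gene had peaks in both lists.

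The obligate GABA-B receptor pair differed in length and in peaks. Gabbr2 (chr4:46662318-46991714), the subunit that couples to G proteins, had 11 sham and 6 SCI peaks against 10.7 and 4.54. Gabbr1, the GABA-binding subunit, is 28.3 kb long and had 1 sham peak, 4565 bp outside the gene with a score of 17.7, and no SCI peak, where 52.5% of genes of like length had an SCI peak.

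Glycine receptor genes held 17 sham peaks against 21.8 expected and 10 SCI peaks against 9.09. Glra2 (chrX:165129017-165327867) had 10 sham peaks against 7.28, at percentile 82.5, and 4 SCI peaks against 3.04. Glra3, of nearly the same length, had 2 sham peaks, at percentile 3.75, and 2 SCI peaks. Glra1, the main alpha subunit of the adult cord, had 4 sham peaks against 4.11 and 3 SCI peaks against 1.70 (percentile 83.0). Glrb, the beta subunit that binds the scaffold gephyrin, had 1 peak in each list, against 3.10 and 1.34 expected.

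**Figure D3:**
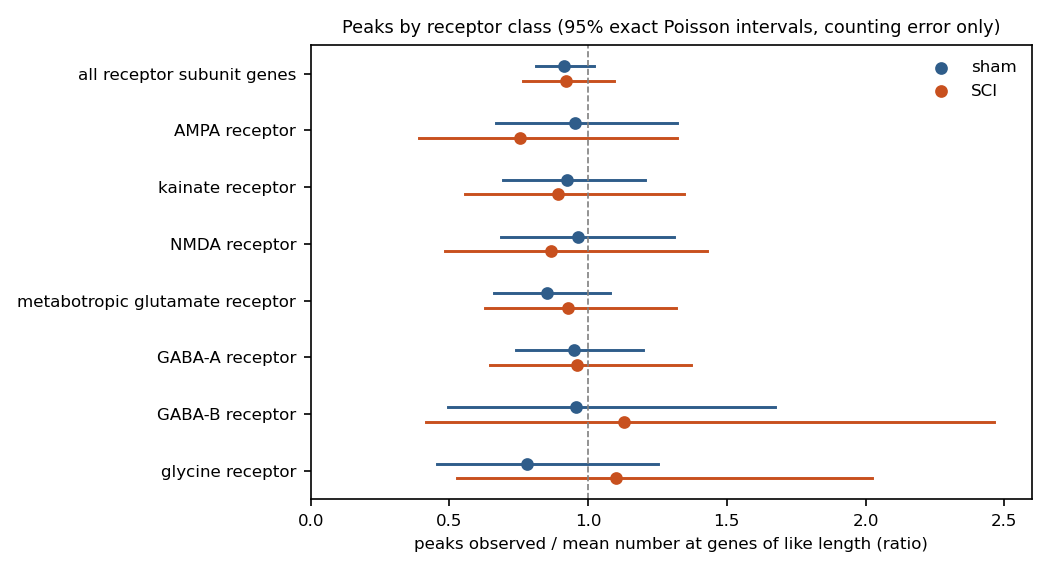
Ratio of the number of peaks found to the mean number at genes of like length (horizontal axis) for all receptor genes and each class, with 95% exact Poisson intervals for counting error. The interval of every class includes 1 in both lists, from 0.78 in sham (glycine receptors) and 0.76 in SCI (AMPA receptors) to 0.96 and 1.13.

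The peaks with the highest scores lay inside long genes. The authors' score, their own value for the strength of a peak, was used only within a list. The highest sham peak at a receptor gene lay in Grin2b at chr6:135820287-135820361, scored 47.4 and was number 401 of 88765. The next were in Gabrb1 (score 43.4), Glra2 (41.2), Grik2 (38.4) and Gria4 (38.2). In SCI the highest lay in Gabrb1 at chr5:72038832-72038995, scored 39.7 and was number 66 of 36249, followed by Grin3a (23.1), Gabbr2 (21.97), Glra2 (20.6) and Grm8 (20.01). Peaks in the top 10% of scores made up 11.1% of the sham and 10.3% of the SCI peaks at receptor genes, close to the 10% that ranking gives over each list.

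Fewer positions were common to both lists at the receptor genes than at genes of like length. Among the 126 SCI peaks, 12 had 1 bp or more in common with a sham peak, 9.52% (95% exact binomial interval 5.02 to 16.0%), against 21.2% of 8992 SCI peaks at genes of like length and 21.6% of all SCI peaks. Of the 298 sham peaks, the same 12 positions made up 4.03% (2.10 to 6.93%), against 8.83% at genes of like length. A shared position was found at 9 receptor genes, 23.1%, against 16.5% of all protein-coding genes and 43.6% at like length. No test over the list was run, and shared peaks in 1 gene are not independent, so the intervals describe these libraries only.

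The share was also set beside the strength and form of the scores. In the top 10% of sham scores 8 of 33 peaks at receptor genes were shared, 24.2%, against 21.0% at genes of like length, while between the top 10% and the top 50% 1 of 108 was, 0.926% against 10.6%. In SCI the share at receptor genes was lower in each band. It was 15.4% (2 of 13) against 40.0% in the top 10% of scores, 14.8% (8 of 54) against 24.2% between the top 10% and the top 50%, and 3.39% (2 of 59) against 15.0% in the lower 50%. A part of the scores had an exact arithmetic form, minus 1 plus 2 times the square root of some whole number (within 0.0001), and only 4.82% of SCI peaks with this form were shared over the complete list. Peaks of this form made up 42.1% of the SCI peaks at receptor genes and 33.0% at genes of like length. Without them, 13.7% (6.77 to 23.8%) of 73 SCI peaks were shared, against 29.4% at genes of like length.

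**Figure D4:**
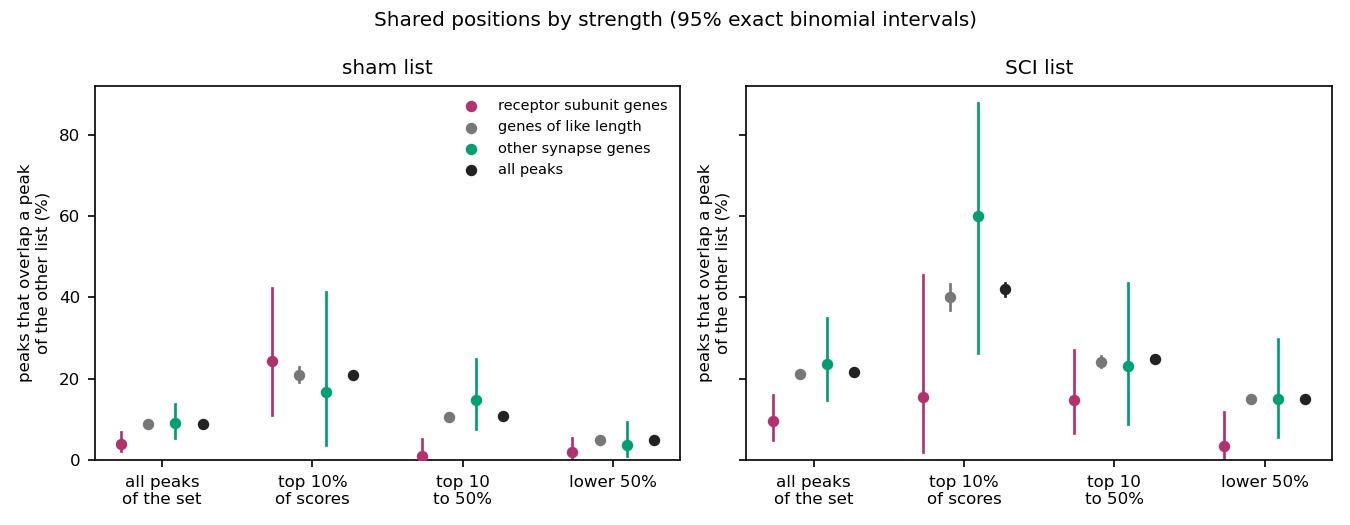
Percent of peaks that overlap a peak of the other list (vertical axis) for receptor genes, genes of like length, other synapse genes and all peaks, over all scores and in 3 bands of score, with 95% exact binomial intervals. Receptor genes lie at 4.03% in sham and 9.52% in SCI, below genes of like length at 8.83% and 21.2%, and in the top 10% of scores they lie at 24.2% against 21.0% in sham and at 15.4% against 40.0% in SCI.

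The 12 shared positions were all inside genes. GABA-A receptor genes had 5 of them among 30 SCI peaks, 16.7% (5.64 to 34.7%). Metabotropic glutamate receptor genes had none among 31 SCI peaks (interval 0 to 11.2%). Over the complete list 21.6% of SCI peaks were shared. Gabrb1 had the position with the best ranks, where the SCI peak above and the sham peak at chr5:72038969-72039060 had centres 101 bp apart. A second position in Gabrb1 scored 29.0 in sham and 8.92 in SCI. At Gabra3 the sham peak chrX:72625214-72625403 scored 32.8 and the SCI peak 12.7, and at Gabra5 the values were 24.7 and 7.66. The position in Gria4 lay 6188 bp inside the listed start (chr9:4789965-4790128 in SCI) and scored 38.2 in sham and 10.4 in SCI. Grin2b had 2, of which the highest sham peak above paired with an SCI peak of 7.59, and the other scored 32.3 in sham and 6.16 in SCI. Grik2 also had 2, with sham scores of 38.4 and 5.93 and SCI scores of 7.31 and 7.94. Gabrg3 (8.16 in sham, 9.95 in SCI), Glra2 (7.29 and 13.0) and Gabbr2 (5.48 and 21.97) had 1 each. At 8 of the 12 positions the sham peak lay in the top 10% of its list, and the SCI peak did so at 2. At genes of like length, 443 of 1903 shared sham peaks and 362 of 1903 shared SCI peaks lay in the top 10%.

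**Figure D5:**
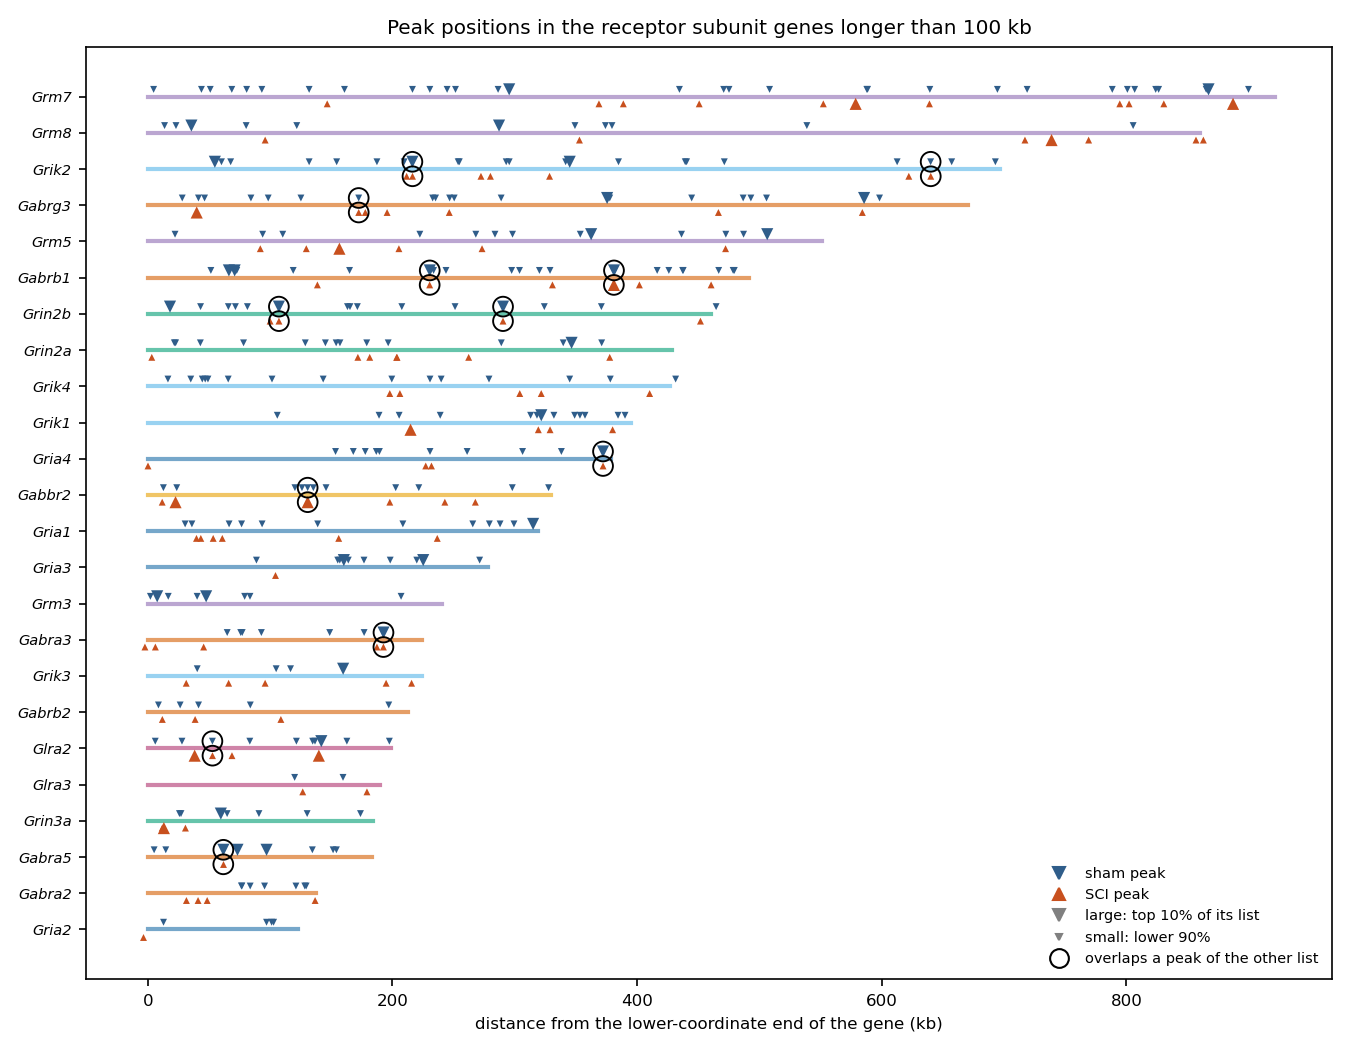
Positions of sham peaks (blue, above each line) and SCI peaks (orange, below) in the 24 receptor genes longer than 100 kb, as distance in kb from the lower-coordinate end of the gene. Large marks are in the top 10% of their list, and black circles mark the 12 shared positions, which are few beside the 298 sham and 126 SCI peaks of all 39 genes. Grm3 has 8 sham marks and no SCI mark.

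Few gene starts had a peak close by, at the receptor genes and over all protein-coding genes. The RefSeq promoter table lists a start for 29 of the 39 genes (the others are Gria1, Gria3, Grik1, Grin2a, Grin2b, Grin3a, Grm4, Grm5, Gabrd and Glra1), and 1 of the 29 had a sham peak centre within 1 kb of a listed start (3.45%, against 7.29% of all protein-coding genes with a start) and 1 an SCI peak (3.45% against 3.19%). The SCI peak lay 732.5 bp inside Gabra2 at chr5:71095035-71095198, scoring 14.3 (top 10.4%), and the sham peak 938.5 bp past the listed start of Glra2 at chrX:165326360-165326549, scoring 12.3 (top 24.6%). Along the genes from start to end, the 201 sham peaks inside these 29 genes fell into 5 pieces of equal length as 41, 33, 38, 38 and 51. The 85 SCI peaks fell as 18, 11, 13, 24 and 19. In the fourth piece lay 28.2% of the SCI peaks, against 19.6% at genes of like length, and 18.9% of the sham peaks, against 19.1%. The second piece held 12.9% of the SCI peaks, against 19.5%. The first piece held 20.4% in sham and 21.2% in SCI, against 20.9% and 21.3%. These shares were not tested.

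The core STAT motif TTCNNNGAA, which reads the same on both strands, was searched in the promoter windows, 250 bases before to 50 after each start. It was found at 3 of 29 receptor genes, 10.3%, against 8.92% of 17492 protein-coding genes, a share close to the background. It lay before the start of Gabra6 (TTCTGTGAA, first base at position -155) and Gabrg1 (TTCAGAGAA, -146), and after the second listed start of Gabrb1 (TTCCTTGAA, first base 37 after the start). A match describes the sequence and is no evidence of binding, and none of these windows held a peak centre. Gabra6, an alpha subunit best known from cerebellar granule cells, had no peak in either list, with the nearest sham peak at 11.6 kb and the nearest SCI peak at 23.7 kb, and the peaks at Gabrg1 lay inside the gene. The sequence of the peaks themselves was not used here. The 250 bases before the start are shown for Gabra2, which had an SCI peak near its start, and for Gabrg1 and Gabra6, which had the motif there. They are from RefSeq on GRCm38.p6, 5′ to 3′ on the minus strand, from which all 3 genes are read, with the motif in capitals. They lie at chr5:71095850-71096099 (Gabra2), chr5:70842618-70842867 (Gabrg1) and chr11:42321073-42321322 (Gabra6).
Gabra2: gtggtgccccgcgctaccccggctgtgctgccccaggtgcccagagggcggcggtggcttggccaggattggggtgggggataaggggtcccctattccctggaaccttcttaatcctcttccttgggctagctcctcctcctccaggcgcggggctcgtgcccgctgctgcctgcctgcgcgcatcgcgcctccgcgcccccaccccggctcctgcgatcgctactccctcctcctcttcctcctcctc
Gabrg1: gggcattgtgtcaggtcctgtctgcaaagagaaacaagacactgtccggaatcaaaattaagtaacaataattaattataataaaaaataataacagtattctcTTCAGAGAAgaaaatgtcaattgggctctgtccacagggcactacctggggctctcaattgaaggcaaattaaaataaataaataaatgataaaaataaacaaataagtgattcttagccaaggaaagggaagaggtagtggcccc
Gabra6: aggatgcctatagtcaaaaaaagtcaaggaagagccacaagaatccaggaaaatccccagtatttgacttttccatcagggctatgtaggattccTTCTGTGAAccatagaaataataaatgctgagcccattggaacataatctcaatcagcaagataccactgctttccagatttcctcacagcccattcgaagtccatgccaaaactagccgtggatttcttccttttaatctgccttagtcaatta
The Gabra2 sequence holds no capitals, since the motif was not found in it.

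Other genes of the same synapses gave a background of a related kind. A list of 36 genes for transmitter synthesis, loading and uptake and for receptor scaffolds and auxiliary subunits had a sham peak at 32 (88.9%, against 87.9% at genes of like length) and an SCI peak at 23 (63.9%, against 69.3%). They held 200 sham and 76 SCI peaks, against 177 and 73.1 expected. Dlg2, a scaffold gene of 1973 kb, accounted for 56 and 22 of them, and with expected numbers scaled to length the expected totals were 210 and 87.2. The density of the 500 kb on each side of these genes gave expected totals of 288 and 109.6, so the ratio of found to expected was 0.69 in both lists by flanks, against 1.13 in sham and 1.04 in SCI by genes of like length. Among the 76 SCI peaks at all 36 genes, 18 were shared with sham, 23.7% (14.7 to 34.8%).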

How the data were processed

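The deposited peak lists of the sham and SCI STAT3 ChIP libraries were used, each matched to its sample by title, and input libraries are not analysed here. Bowtie2, a read aligner, and the mouse build mm10 are listed in the submitters' processing notes. The caller, control and cutoff behind the peaks were not stated in these sources (not given in the sources used here). Each peak carries a score in the deposited lists, the authors' own value with a minimum of 5, whose scale is not stated. They also give a −log10 value in the place where the deposited layout puts a q-value, which was not used. Read counts are not part of the lists, so sequencing depth is unknown. On chromosomes 1 to 19, X and Y the lists held 88765 sham and 36249 SCI peaks, and no filter for artefact-prone regions was applied.

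Genes came from RefSeq GRCm38.p6, whose primary chromosomes have mm10 coordinates. Peaks were counted at genes with a window of 5 kb. Genes of like length are the 200 protein-coding genes nearest in log length. Intervals are 95% exact (Poisson or Clopper-Pearson) and cover counting error only. The counting was tested on simulated peaks at random positions, with a planted excess and a planted share of common positions. Such peaks lack local differences in density. The tolerance was wider than the distance from 1 of the ratios over all receptor genes. The test therefore checks the code and not those ratios. Alternatives changed the window, the score cutoff, the genes of like length, the overlap rule and the expected number (from flanks or peak density). The genes, the lists and the rule for genes named in full were chosen with earlier results of these data known. That rule takes, per class, the gene with most peaks in each list, all genes without a peak in a list, the 5 highest and lowest percentiles, the 5 best peaks of each list and the 10 shared positions with the best lower rank; every other receptor gene is given by its counts, and Dlg2 was chosen after its values were seen. Some values are not reported here. Scripts ran under Python 3.11.15 with scipy 1.17.1, pandas 2.3.3, numpy 2.4.6 and, for plots, matplotlib 3.10.9.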

Additional observations from a re-analysis of the deposited data

How the results depend on the processing

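The ratio of found to expected peaks over all receptor genes stayed below 1 under the 12 alternatives, of which equal lists leave SCI as it is, from 0.85 to 0.96 for sham and 0.81 to 0.99 for SCI. Its interval lay below 1 in sham with a window of 50 kb (0.87, 0.78 to 0.95) and with the expected number scaled to gene length (0.89, 0.79 to 0.99), the latter chosen after seeing the data. The number of genes with a sham peak ran from 28 to 39 and with an SCI peak from 25 to 38. The share of SCI peaks at receptor genes that overlapped a sham peak ran from 5.56% (overlap of at least 50% of both peaks, against 14.7% of all SCI peaks) to 14.3% (centres within 1000 bp, against 26.8%). Leaving out peaks with the square-root form of the score was also chosen after seeing the data.

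Which genes had a peak in 1 list alone did depend on the settings. Grm3 had a sham peak alone in every setting but the window of 50 kb. Gabra4 had an SCI peak alone except with windows of 10 and 50 kb and without the square-root form of the score, where it had none. When only the 36249 best sham peaks were kept, 7 genes had an SCI peak alone and 3 a sham peak alone. Without the square-root form 1 gene (Grm2) had an SCI peak alone and 9 a sham peak alone, and Grik5 had no peak. The only class value to leave its interval was the sham ratio of kainate receptor genes, 0.66 with the lists at equal numbers, but the intervals are wide and several class ratios crossed 1. With scores at or above the median, the SCI ratio went from 0.76 to 1.15 for AMPA, from 0.96 to 1.16 for GABA-A, from 1.13 to 2.28 for GABA-B and from 1.10 to 0.88 for glycine receptor genes, and without the square-root form the last was 0.65. With 400 genes of like length it was 1.04 for metabotropic and 1.00 for GABA-A receptor genes. The sham ratio crossed to 1.06 for metabotropic and 1.00 for glycine receptor genes by flanks, to 1.02 for AMPA without the square-root form, to 1.02 for GABA-A with scores at or above the median, and to between 1.08 and 1.16 for GABA-B under 3 settings (scores at or above the median, equal lists, window of 10 kb). The cause was not tested. At single genes, 33 of the 78 peak numbers (39 genes in both lists) stayed within a factor of 1.5 when only scores at or above the median were kept, 46 with equal lists and 52 without the square-root form. No paired analysis was possible because each condition had 1 STAT3 library.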
